A study of Mus musculus with 18 samples.

Results

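The genes that add, copy, remove, or read cytosine methylation in DNA were followed across mouse kidney RNA. They were chosen by name as writers, erasers, and a reader of this mark, and 8 of the 78239 genes counted belong to them: *Dnmt1*, *Uhrf1*, *Dnmt3a*, *Dnmt3b*, *Tet1*, *Tet2*, *Tet3*, and *Mbd2*. DNA methyltransferases place a methyl group on cytosine, mostly where C is followed by G: *Dnmt3a* and *Dnmt3b* encode the enzymes that set new marks, and *Dnmt1* encodes the enzyme that copies marks onto the new strand after replication, guided there by the product of *Uhrf1*. The TET enzymes oxidize methylcytosine, the first step of its removal, and the product of *Mbd2* binds methylated DNA and recruits a repressor complex. The mRNA of these genes was measured here, not methylation itself.

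The kidneys came from 6-wk-old wild-type CD-1 mice, an outbred stock, with 1 library per mouse. Mothers were fed an 8% protein (LP) or an 18% protein (NP) diet through gestation and lactation, and all offspring received the 18% diet from weaning. The males were 5 LP and 5 NP mice and the females 5 LP and 3 NP mice, and the litter of each mouse was not given in the sources used here. All mice, controls included, had cationic ferritin injected for imaging of glomeruli, and the kidneys were taken 1.5 h after the last injection in males and 24 h after it in females. Any difference between the sexes and one between these times therefore cannot be told apart. The labels name a whole kidney in the design and only a piece of the left kidney in the protocol, so the share of cortex and medulla in each library is not known.

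Reads counted on genes ranged from 14050486 to 23562411 per library. Tissue markers fixed for the check were those of kidney: summed proximal tubule markers lay between 8886 and 14399 CPM, the reads of a gene scaled to all reads on genes in its library, and 5 of 5 podocyte markers and 6 of 6 markers of the distal tubule and collecting duct were above 0 in every group. Libraries of LP female 1, LP female 2, and NP female 3 stood apart from the other 5 females. In those 3, the summed level of 15 interferon-stimulated genes was 171 to 257 CPM, against 1441 to 5785 CPM in the other females and 1038 to 2193 CPM in males. The summed level of 12 glucocorticoid targets was 550 to 877 CPM in those 3, 1860 to 2627 CPM in the other females, and 898 to 1572 CPM in males. Results of the 8 genes that rest on females, and the counts of gene groups between the sexes, are therefore also given without these 3 libraries. The females that remain are then LP female 3, LP female 4, LP female 5, NP female 1, and NP female 2, so these values rest on few mice. In whole tissue, fewer cells of a type and less RNA per cell cannot be told apart.

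The genes differ in the sequence before their start sites. RefSeq windows of 250 bases upstream of the start were matched on GRCm39 for 7 of the 8 genes, *Mbd2* having no entry. *Tet2* had 51 CpG in its window, as many as or more than 99.9% of 12342 windows of tested genes, whose median was 15. The window of *Dnmt3a* with the most CpG had 40, that of *Uhrf1* 30, and that of *Dnmt1* 26. *Dnmt3b* had 21, *Tet3* 17, and *Tet1* 15. In GENCODE vM39, annotated exons cover all 250 bases of the *Tet2* window. Of the other windows just named they cover 158 bases in *Dnmt3a*, 198 in *Uhrf1*, 166 in *Dnmt1*, 46 in *Dnmt3b*, 185 in *Tet3*, and 100 in *Tet1*. An E2F word, the letters through which the E2F factors of the cell cycle are known to bind (TTTCCCGC, TTTCGCGC, TTTGCCGC, or TTTGGCGC, on either strand), was present in a window of *Dnmt1* and of *Uhrf1* and in none of the other 5 genes. Of all windows, 3.14% held one. The GC box (GGGCGG, either strand) was in at least 1 window of each of the 7 genes and in 57.1% of all windows. *Dnmt1*, *Dnmt3a*, and *Uhrf1* had more than 1 window, and not every window of *Dnmt1* held a GC box. Counts by gene and shares of windows are therefore unlike measures for both words. The other windows had 7 and 2 CpG in *Dnmt1*, 38 and 15 in *Dnmt3a*, and 10 in *Uhrf1*. The 30 bases around each E2F word are shown because *Dnmt1* and *Uhrf1* are the pair that works at the replication fork, and capitals mark the word on the strand of the gene.
*Dnmt1*, GRCm39 chr9:20864120-20864149, minus strand: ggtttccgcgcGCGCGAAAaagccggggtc
*Uhrf1*, GRCm39 chr17:56611117-56611146, plus strand: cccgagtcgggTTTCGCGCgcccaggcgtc
The word began 219 bases before the end of its window in *Dnmt1* and 185 bases before it in *Uhrf1*, and all 30 bases of both stretches lie inside annotated exons in GENCODE vM39. A match of letters is a description and does not show that a factor binds there.

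No library held fewer than 10 counts of any of the 8 genes, so all were tested in every comparison, as were 12665 genes in all. To compare the genes with each other, CPM was divided by the length of the merged exons. *Mbd2* was the highest by far, with a mean of 12.5 ± 0.97 CPM per kb (SD, n = 18), and all of its 18 libraries lay above the next gene. A middle group of *Dnmt3a* (2.76 ± 0.54 CPM per kb), *Tet2* (2.51 ± 0.76 CPM per kb), *Dnmt1* (2.15 ± 0.41 CPM per kb), and *Tet3* (1.83 ± 0.44 CPM per kb) followed. The ranges of neighbors in this group overlapped, so their order is not separated by the spread between mice, although *Dnmt1* lay above *Tet3* in 17 of 18 libraries. *Uhrf1* (0.70 ± 0.35 CPM per kb), *Dnmt3b* (0.26 ± 0.16 CPM per kb), and *Tet1* (0.16 ± 0.13 CPM per kb) were the 3 lowest. Of the enzymes that set new marks, *Dnmt3a* was thus the more abundant mRNA and *Dnmt3b* the less abundant, and of the erasers *Tet1* was the lowest.

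**Figure D1:**
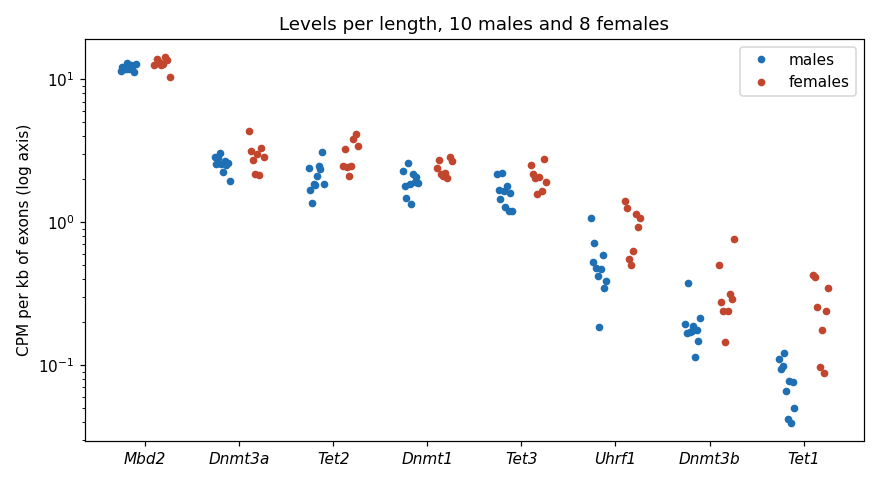
Level of each gene in CPM per kb of merged exons, on a log axis, with a point for each of 10 males (blue) and 8 females (red). *Mbd2* lies above all others, *Dnmt3a*, *Tet2*, *Dnmt1*, and *Tet3* overlap, and *Uhrf1*, *Dnmt3b*, and *Tet1* are lowest.

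The order of the middle group changed with the group of mice. In LP males *Tet2*, with a mean of 1.82 CPM per kb, lay behind *Dnmt1* (2.01 CPM per kb) and *Tet3* (1.83 CPM per kb), and the ranges of neighbors overlapped. In NP females *Tet2* had 3.78 ± 0.36 CPM per kb (SD, n = 3) and *Dnmt3a* 2.77 ± 0.58 CPM per kb, and the ranges of the 2 genes did not overlap in that group. In LP females *Dnmt3a* was second, with 3.09 ± 0.81 CPM per kb (SD, n = 5), and lay above *Tet2* in 4 of 5 libraries. The spread between mice also differed by gene: over the 18 libraries the coefficient of variation was 7.81% for *Mbd2*, 19.1% for *Dnmt1*, 19.7% for *Dnmt3a*, 50.1% for *Uhrf1*, 60.5% for *Dnmt3b*, and 80.6% for *Tet1*. The low genes rest on few reads, with 10 to 130 counts per library for *Tet1* and 12 to 69 for *Dnmt3b*, so counting error adds to their spread. *Mbd2* had 1323 to 2657 counts per library.

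The first comparison was of males against females, averaged over the diets. The genes *Tet1*, *Tet2*, *Uhrf1*, and *Dnmt3b* were lower in males, and none was higher. *Dnmt1*, *Dnmt3a*, *Tet3*, and *Mbd2* did not pass the test. In edgeR's quasi-likelihood test, 4 of the 8 genes were thus called at an adjusted p under 0.05, against 38.7% of all genes tested, and 4 of 8 were called lower, against 19.8% of all genes. Without the 3 female libraries that stood apart, 2 of 8 were called, *Tet1* and *Tet2*, against 37.7% of all genes tested. These 2 of 8 were lower in males, against 19.5% of all genes lower.

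*Tet1* showed the largest difference among the 8. Its level was 1.71, 1.45, 1.52, 1.88, and 1.03 CPM in the 5 LP males and 0.651, 1.19, 0.607, 1.17, and 0.770 CPM in the 5 NP males. In LP females it was 6.58, 6.39, 3.97, 1.502, and 2.72 CPM, and in NP females 1.36, 3.72, and 5.39 CPM. Above the highest male lay 6 of 8 females, and the other 2, LP female 4 and NP female 1, lay within the male range. The log2 fold change of males over females was -1.60 ± 0.30 (SE; adjusted p = 0.00040 in edgeR), and an exact permutation of the sex labels within each diet gave a two-sided p of 0.00043. The 3 highest values of *Tet1* belonged to the 3 female libraries that stood apart, at 5.39 to 6.58 CPM, against 1.36 to 3.97 CPM in the other 5 females. Without those 3 libraries males were still lower, at -1.07 ± 0.27 on the log2 scale (SE; adjusted p = 0.0058 in edgeR). The part of the low interferon and glucocorticoid levels of these libraries in the *Tet1* value was not tested.

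**Figure D2:**
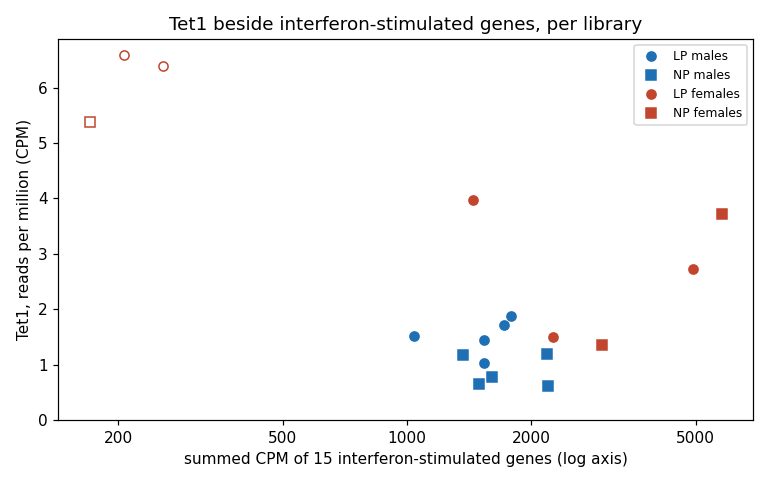
*Tet1* level in CPM against the summed CPM of 15 interferon-stimulated genes on a log axis, 1 point per library, with males in blue, females in red, LP as circles, and NP as squares. The 3 open points are LP female 1, LP female 2, and NP female 3, which lie at 171 to 257 CPM of interferon-stimulated genes and 5.39 to 6.58 CPM of *Tet1*.

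*Tet2* was lower in males by a smaller step, with and without those libraries. Its level was 42.3, 30.03, 24.3, 32.9, and 32.2 CPM in LP males and 37.2, 43.8, 42.1, 55.3, and 33.1 CPM in NP males. In LP females it was 43.7, 57.7, 43.1, 37.2, and 44.0 CPM, and in NP females 67.8, 73.1, and 60.4 CPM. The ranges of the sexes overlapped, with 4 females above the highest male and 5 males below the lowest female. Males over females gave -0.44 ± 0.11 on the log2 scale (SE; adjusted p = 0.0035 in edgeR), and -0.42 ± 0.12 (SE) without the 3 female libraries, with an adjusted p of 0.0099 in edgeR. Within LP mice alone the value was -0.34, with an adjusted p of 0.102 in edgeR, and within NP mice alone it was -0.52, with an adjusted p of 0.0575.

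*Uhrf1* ranged from 0.977 to 5.62 CPM in males, with a median of 2.51 CPM, and from 2.64 to 7.44 CPM in females, with a median of 5.27 CPM. There were 4 females above the highest male and 6 males below the lowest female. Males lay lower at -0.78 ± 0.25 on the log2 scale (SE; adjusted p = 0.0211 in edgeR), and was -0.47 without the 3 female libraries, with an adjusted p of 0.147. In those 3 libraries *Uhrf1* was 5.66 to 7.44 CPM, against 2.64 to 6.02 CPM in the other 5 females. The difference was -0.29 ± 0.35 (SE) within LP mice, with an adjusted p of 0.612, and -1.26 ± 0.32 (SE) within NP mice, with an adjusted p of 0.0293 in edgeR. These 2 values were not shown to differ, since the test of the diet by sex term gave *Uhrf1* an adjusted p of 0.977.

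*Dnmt3b* ranged from 0.712 to 2.33 CPM in males, with a median of 1.09 CPM, and from 0.901 to 4.77 CPM in females, with a median of 1.75 CPM. The groups overlapped, with only 2 females above the highest male. In the test the log2 fold change came to -0.77 ± 0.27 (SE; adjusted p = 0.0347 in edgeR). This call rested on single libraries: it was lost when NP female 3 was left out, with a log2 fold change of -0.44 and an adjusted p of 0.199, and also when LP female 1, LP male 1, 2, 4, or 5, or NP male 2 or 4 was left out, with an adjusted p of 0.0502 to 0.0726. Without the 3 female libraries it was -0.26 ± 0.24 (SE; adjusted p = 0.431).

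The other 4 genes gave smaller values. *Tet3*, the third TET enzyme, ranged from 19.9 to 36.9 CPM in males and from 26.2 to 46.0 CPM in females, with -0.24 ± 0.12 on the log2 scale (SE) and an adjusted p of 0.11 in edgeR; its adjusted p was 0.0376 when NP female 1 was left out. *Dnmt1* ranged from 11.5 to 22.2 CPM in males and from 17.3 to 24.3 CPM in females, with -0.19 ± 0.11 on the log2 scale (SE) and an adjusted p of 0.199. *Dnmt3a* had -0.04 ± 0.11 (SE; adjusted p = 0.779). *Mbd2* had 0.05 ± 0.06 (SE; adjusted p = 0.574), and its direction turned with the scaling. Scaling by the library total placed males 0.13 lower on the log2 scale, relative to females, than scaling by TMM did, and on that scale *Mbd2* was at -0.09. The exact permutation test on library totals gave an unadjusted p under 0.05 for 6 of 8 genes, *Dnmt1* (p = 0.0173) and *Tet3* (p = 0.0203) besides the 4 called. With TMM-adjusted library sizes only the 4 genes called by edgeR had such a p. These p-values are not adjusted, unlike the edgeR calls. The permutation was run on the 8 genes only, so no share of all genes stands beside these counts.

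**Figure D3:**
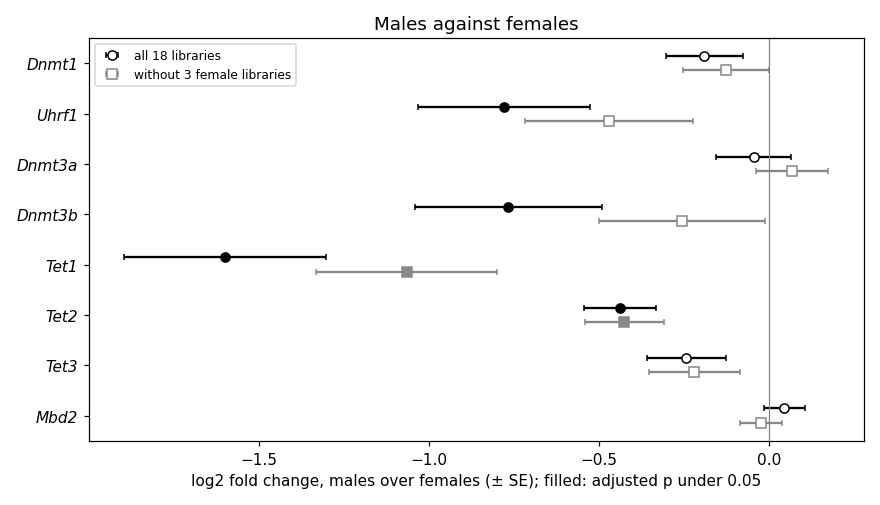
Log2 fold change of males over females for each gene (± SE), with all 18 libraries (black circles) and without LP female 1, LP female 2, and NP female 3 (gray squares); filled symbols have an adjusted p under 0.05. *Tet1* and *Tet2* stay filled in both, and *Uhrf1* and *Dnmt3b* are filled only with all libraries.

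Several groups of genes around the methylation machinery were set beside the 8. Of the genes of S phase and mitosis, 8 of 12 tested were lower in males and none was higher, against 19.8% of all genes lower, with a median log2 fold change of -0.59, against -0.05 over all genes and -0.34 over the 8. Among them were *Rrm1* (-0.62 ± 0.13, SE; adjusted p = 0.0011 in edgeR) and *Rrm2* (-0.73 ± 0.17, SE; adjusted p = 0.0023), which encode the subunits of ribonucleotide reductase, and *Mcm5* (-0.91 ± 0.22, SE; adjusted p = 0.0040), part of the replicative helicase. Without the 3 female libraries 6 of 12 were called lower, against 19.5% of all genes. Within LP mice alone none of 15 tested was lower and 1 was higher, against 8.01% and 10.9% of all genes, and within NP mice alone 7 of 12 were lower, against 6.89%. Across the 10 males, after removal of the diet means, *Uhrf1* and the summed S-phase level had a Pearson's r of 0.56 (permutation p = 0.121) and a Spearman's rho of 0.49 (permutation p = 0.165), and r was 0.28 without the 2 mice farthest from the median. *Dnmt1* had r = 0.44 (permutation p = 0.272), and after adjustment over the 8 genes the lowest p was 0.903 for r and 0.66 for rho. Females were not pooled for this relation, since their libraries formed separate sets.

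Genes that act with the 8 moved in both directions between the sexes. Of 20 tested genes of active demethylation and base excision repair, 5 were lower in males and none was higher, against 19.8% of all genes lower and 18.9% higher, among them *Ung*, a uracil DNA glycosylase (-1.36 ± 0.18, SE; adjusted p = 1.79e-05 in edgeR), *Ogt*, the O-GlcNAc transferase known to bind TET proteins (-0.57 ± 0.14, SE; adjusted p = 0.0045), and *Gadd45a* (-0.80 ± 0.21, SE; adjusted p = 0.0066). The median of the list was -0.0011, and without the 3 female libraries 5 of 20 were lower, against 19.5% of all genes. Of 23 genes of one-carbon metabolism, the source of the methyl group, 9 were higher and 3 lower, against 38.7% of all genes called in either direction. Without the 3 female libraries 7 were higher and 3 lower, against 18.2% and 19.5% of all genes. *Cbs*, which draws homocysteine away from the methionine cycle (1.32 ± 0.13, SE), *Chdh*, which oxidizes choline toward betaine (0.92 ± 0.13, SE), and *Shmt2*, the mitochondrial serine hydroxymethyltransferase (0.73 ± 0.09, SE), were the 3 with the smallest p and all were higher in males.

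Among cofactors, readers, and histone partners the share of calls was near or below the 38.7% of all genes. Of 6 tested cofactors of the writers, *Lig1*, the ligase of replication, was lower in males (-0.71 ± 0.20, SE; adjusted p = 0.0087 in edgeR) and *Usp7*, a deubiquitinase of the DNMT1 complex, was higher (0.24 ± 0.07, SE; adjusted p = 0.012). The list of other methyl-CpG readers also held further genes of the MBD family, and 8 of its genes were tested. Of these, *Mbd6* was lower (-0.39 ± 0.11, SE, adjusted p = 0.0096 in edgeR) and *Mbd1* higher (0.70 ± 0.21, SE, adjusted p = 0.0123). Of 15 histone modifiers and complex members that work with methylation, 3 were higher and 2 lower, among them *Gatad2a* (0.41 ± 0.07, SE) and *Hdac2* (0.42 ± 0.09, SE), parts of the NuRD complex, which were higher, and *Kmt2a*, a histone H3K4 methyltransferase (-0.52 ± 0.18, SE; adjusted p = 0.0266), which was lower. When those 3 female libraries were left out, none of 6 cofactors was called, against 37.7% of all genes. Of 9 genes of the reader list 1 was then lower and none higher, and of the 15 histone partners 3 were higher and 1 lower. Of 13 germline genes that methylation is known to keep silent, only 2 had enough counts to be tested, *Sycp3* and *Brdt*, and neither was called; the summed level of the 13 was 3.6 to 11.7 CPM.

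Markers of cell types moved with the same contrast. All 5 podocyte markers and all 6 markers of distal tubule and collecting duct were lower in males, against 19.8% of all genes. Their medians were -0.80 and -0.84 on the log2 scale. Without the 3 female libraries 5 of 5 and 5 of 6 were lower, against 19.5% of all genes. Summed podocyte markers were 150 to 257 CPM in males and 251 to 529 CPM in females, and summed distal markers were 652 to 1141 CPM in males and 1276 to 2025 CPM in females. Of 7 proximal tubule markers, 3 were higher in males, against 18.9% of all genes. Of 6 markers of the thick limb and medulla, 2 were lower, against 19.8% of all genes. Of 5 tested leukocyte markers and 5 endothelial markers none was called in edgeR, with medians of -0.05 and -0.19. Of the adipose and the erythroid markers 1 each could be tested: *Fabp4* was lower in males (-1.60 ± 0.47, SE; adjusted p = 0.0122 in edgeR) and the erythroid one was not called. Without the 3 female libraries that stood apart *Fabp4* was not called either. Of 11 glucocorticoid targets 4 were lower, against 19.8% of all genes, and of 12 interferon-stimulated genes none was called. Without the 3 female libraries 8 of 12 and 14 of 15 were lower, against 19.5% of all genes. Those 3 libraries were set apart by low levels of these same genes. The counts without them therefore follow from that choice and are no test of the sexes. The part of these cell types in the values of *Tet1*, *Tet2*, *Uhrf1*, and *Dnmt3b* was not tested.

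**Figure D4:**
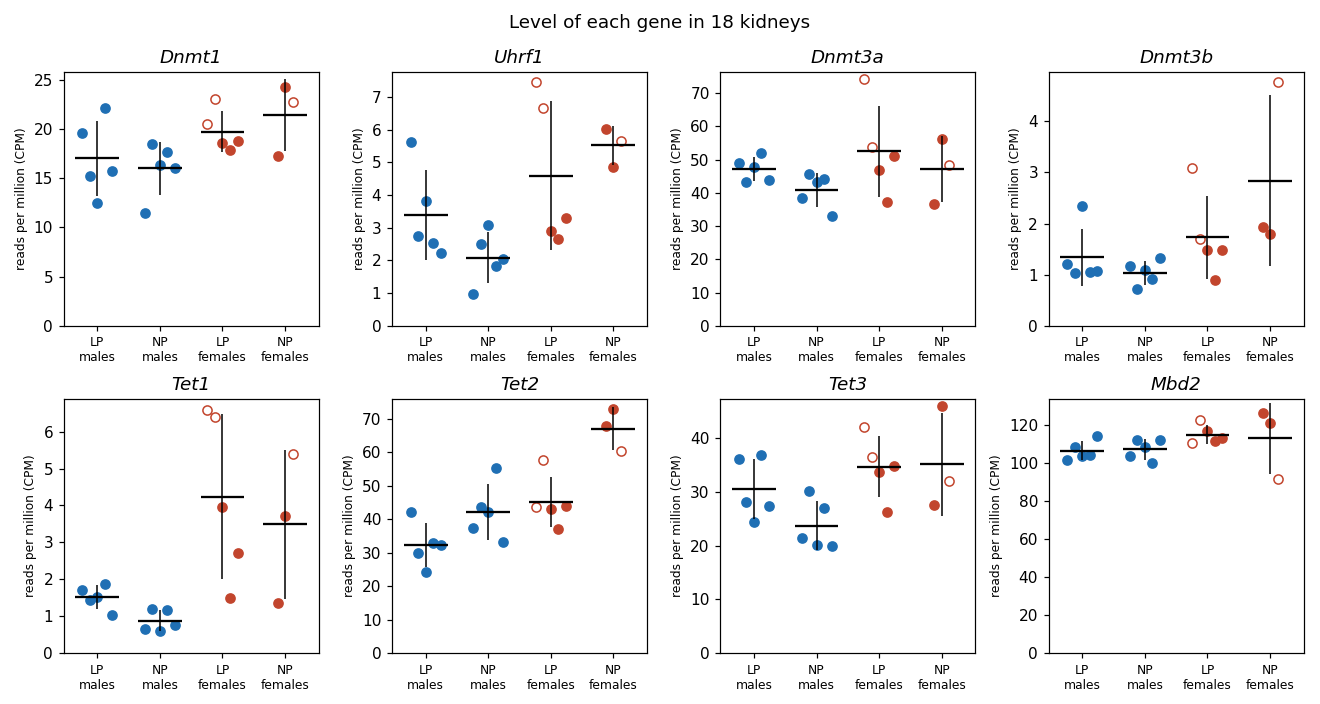
Level of each gene in CPM in every library by group, with the group mean (horizontal line) and SD (vertical line); males are blue, females red, and open circles mark LP female 1, LP female 2, and NP female 3. *Tet2* is the gene in which every LP female lies below every NP female, and the open circles hold the 3 highest values of *Tet1*.

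The second comparison was of LP against NP offspring, which addresses whether the diet of the mother was followed by a different level of these genes in the grown kidney. None of the 8 passed the adjusted test in either sex. In males, edgeR called 0 of 8, against 0.0379% of all genes (5 of 13181), and 3 of the 8 had an unadjusted p under 0.05, against 3.84% of all genes; DESeq2 also called 0 of 8, with 4 at an unadjusted p under 0.05. In females, edgeR called 0 of 8 and 0.0% of 13510 genes, and 1 of the 8 had an unadjusted p under 0.05, against 4.17% of all genes; DESeq2 called 0 of 8, with 1 at an unadjusted p under 0.05. Averaged over both sexes, a comparison added after these values were seen and resting on the same mice, edgeR called 0 of 8, against 0.0079% of all genes (1 of 12665), and 1 of the 8, *Tet2*, had an unadjusted p under 0.05, against 6.5% of all genes. Only *Tet2* pointed to lower levels in LP mice of both sexes with an unadjusted p under 0.05 in each.

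For *Tet2*, the LP females had 37.2 to 57.7 CPM and the NP females 60.4 to 73.1 CPM, so every LP female lay below every NP female. The means were 45.1 ± 7.55 CPM (SD, n = 5) and 67.1 ± 6.36 CPM (SD, n = 3). The log2 fold change of LP over NP was -0.58 ± 0.14 (SE), with an unadjusted p of 0.0020 and an adjusted p of 0.886 in edgeR, and *Tet2* had rank 17 by p among 13510 genes. An exact permutation gave a two-sided p of 0.0179, the smallest that 5 against 3 allows. Groups did not overlap in 2.6% of all genes, with LP lower in 1.36%. Without the 3 libraries that stood apart the value was -0.68 ± 0.15 (SE; adjusted p = 0.972 in edgeR).

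In males *Tet2* had 32.3 ± 6.50 CPM (SD, n = 5) in LP and 42.3 ± 8.38 CPM (SD, n = 5) in NP mice. Of the 5 LP males 4 lay below the lowest NP male, and LP male 1, with 42.3 CPM, lay within the NP range. LP over NP gave -0.41 ± 0.15 on the log2 scale (SE), with an unadjusted p of 0.0183 and an adjusted p of 0.9996 in edgeR, and the exact permutation p was 0.0556. The diet differences of the sexes did not separate, with a diet by sex term of -0.18 ± 0.21 (SE) and an adjusted p of 0.977.

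The other genes with an unadjusted p under 0.05 in males were higher in LP mice. *Tet1* had a mean of 1.52 ± 0.32 CPM (SD, n = 5) in LP and 0.88 ± 0.28 CPM (SD, n = 5) in NP males, and 4 of 5 LP males lay above the highest NP male. LP over NP gave *Tet1* 0.77 ± 0.26 on the log2 scale (SE), with an unadjusted p of 0.0117 and an adjusted p of 0.9996 in edgeR, and the exact permutation p was 0.0238. These values rest on 19 to 41 counts in LP and 10 to 20 counts in NP libraries. *Tet3* had 30.6 ± 5.59 CPM (SD, n = 5) in LP and 23.7 ± 4.58 CPM (SD, n = 5) in NP males, with 0.35 ± 0.14 on the log2 scale (SE), an unadjusted p of 0.0282, and an exact permutation p of 0.0635. In females the same genes gave 0.22 ± 0.54 (SE) for *Tet1* and -0.03 ± 0.19 (SE) for *Tet3*, and without the 3 female libraries 0.19 ± 0.54 (SE) and -0.13 ± 0.24 (SE). These female values turned on single libraries, with *Tet1* at -0.15 without NP female 1 and 0.75 without NP female 3, and *Tet3* at -0.18 without NP female 1 and 0.20 without NP female 2.

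Among the writers, *Uhrf1* and *Dnmt3b* had values above 0 in LP males and below 0 in LP females. *Uhrf1* had 0.67 ± 0.33 (SE) in males and -0.30 ± 0.35 (SE) in females, and *Dnmt3b* 0.36 ± 0.30 (SE) in males and -0.75 ± 0.45 (SE) in females. None of these 4 values passed an unadjusted p of 0.05. They moved with single libraries: *Dnmt3b* was at 0.03 in males without LP male 3 and at -0.08 in females without NP female 3, and *Uhrf1* in females was at -0.52 without LP female 1 and at -0.17 without LP female 3 or LP female 4. With those 3 female libraries left out the female values were -0.79 ± 0.27 (SE) for *Uhrf1*, with an unadjusted p of 0.0201 and an adjusted p of 0.972 in edgeR, and -0.44 ± 0.34 (SE) for *Dnmt3b*. The test of the difference between the sexes gave -0.97 ± 0.51 (SE) for *Uhrf1* and -1.11 ± 0.55 (SE) for *Dnmt3b*, with an adjusted p of 0.977 for both in edgeR, and the term for *Dnmt3b* was -0.45 without NP female 3. It called 0 of the 8, against 0.0158% of all genes (2 of 12665), and none of the 8 had an unadjusted p under 0.05, against 4.02% of all genes. Without the 3 female libraries the term for *Uhrf1* was -1.47 ± 0.50 (SE), with an unadjusted p of 0.0094 and an adjusted p of 0.999 in edgeR. NP female 1 and NP female 2 were then the only NP females. *Dnmt1* had 0.07 ± 0.16 (SE) in males and -0.13 ± 0.16 (SE) in females, *Dnmt3a* 0.19 ± 0.10 (SE) and 0.14 ± 0.21 (SE), and *Mbd2* -0.03 ± 0.07 (SE) and 0.02 ± 0.13 (SE). For *Mbd2* the SEs are small, and the values lie within them. The female values without those 3 libraries were -0.08 ± 0.19 (SE) for *Dnmt1*, 0.04 ± 0.22 (SE) for *Dnmt3a*, and -0.03 ± 0.13 (SE) for *Mbd2*.

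**Figure D5:**
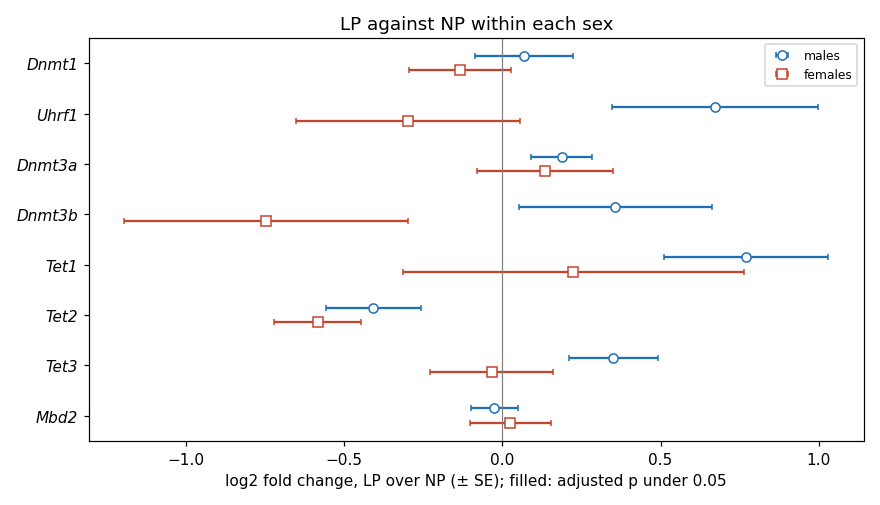
Log2 fold change of LP over NP for each gene (± SE) in males (blue circles) and females (red squares); all symbols are open because no adjusted p was under 0.05. *Tet2* lies below 0 in both sexes, at -0.41 and -0.58, while *Uhrf1* and *Dnmt3b* lie on opposite sides of 0.

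The gene groups gave no call in either diet comparison. In males, 5 of 12 tested genes of S phase and mitosis had an unadjusted p under 0.05, against 3.84% of all genes. The 12 genes had a median log2 fold change of 0.43 in LP over NP, against -0.0039 over all genes. The smallest p among them was that of *Mcm4*, a helicase subunit (0.65 ± 0.19, SE; unadjusted p = 0.0043, adjusted p = 0.9996 in edgeR). In females 0 of 14 had an unadjusted p under 0.05 and the median was -0.26. In males the summed level of this list was 104 to 160 CPM in LP and 79 to 103 CPM in NP mice. No cell type marker was called in males either. Of 5 podocyte markers 2 had an unadjusted p under 0.05, with a median of 0.31 and summed levels of 161 to 257 CPM in LP and 150 to 200.4 CPM in NP mice. Of 6 distal markers 1 did, *Calb1* (0.60 ± 0.21, SE, unadjusted p = 0.0127, adjusted p = 0.9996 in edgeR), as did 4 of 15 interferon-stimulated genes (median -0.28). In males 0 of 7 proximal tubule (median -0.0022), 0 of 6 thick limb and medulla (0.05), 0 of 5 endothelial (0.08), and 0 of 6 leukocyte markers (0.24) had such a p. In females single markers had such a p, *Aqp2* of the collecting duct (-0.74 ± 0.20, SE; unadjusted p = 0.0041, adjusted p = 0.886), *Hnf4a* of the proximal tubule (0.39 ± 0.15, SE; unadjusted p = 0.0299), and *Hba-a1*, a hemoglobin gene (-1.39 ± 0.60, SE; unadjusted p = 0.0437). *Aqp2* was listed with the thick limb and medulla markers, of which 1 of 6 had such a p, with a median of 0.09. Of the distal tubule and collecting duct markers 0 of 6 had such a p (median 0.07). Of the proximal tubule markers 1 of 7 did (median 0.21), and of the erythroid markers 1 of 3 (median -1.01), against 4.17% of all genes in females. The part of these markers and of the interferon-stimulated genes in the values of the 8 genes and of the S-phase list was not tested. Of the one-carbon genes 2 of 23 had an unadjusted p under 0.05 in males, against 3.84% of all genes, and 0 of 24 in females. *Mtr*, methionine synthase, had the lowest p in males (0.45 ± 0.15, SE, unadjusted p = 0.0101 in edgeR). Of other readers, *Mbd1* had -0.43 ± 0.15 (SE) in males (unadjusted p = 0.0139, adjusted p = 0.9996), and in females the lowest p was that of *Zbtb33* (0.55 ± 0.26, SE; unadjusted p = 0.0661).

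How the 8 varied together was described within each sex after removal of the diet means. Of 28 pairs, none passed adjustment in males or in females. In 10 males the strongest pair was *Tet1* and *Tet3*, with a Pearson's r of 0.80 (permutation p = 0.0148, adjusted over the 28 pairs 0.14) and a Spearman's rho of 0.70 (permutation p = 0.0458, adjusted 0.183), and r was 0.80 without the 2 mice farthest from the median. *Dnmt1* and *Tet3* followed with r = 0.78 (permutation p = 0.0139, adjusted 0.14). In females the libraries fell into separate sets of 3 and 5, so no r of these pairs over females is given.

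Genes whose pattern over the 18 mice was most like that of each of the 8, by Pearson's r of log2(CPM + 1) after removal of group means and as a description over 12664 genes, were named by rank. For *Dnmt3a* they were *Ccdc50* (r = 0.96), *Abcc2* (r = 0.94), and *Bnc2* (r = 0.92). For *Tet1* they included *Rhobtb1* (r = 0.94) and *Kmt5a* (r = 0.93), a histone H4K20 methyltransferase. For *Tet2* they included *Mdm4* (r = 0.90) and *Gm33989* (r = 0.89), and for *Tet3* they were *Phf12* (r = 0.92), *Xylt1* (r = 0.92), and *Fmo2* (r = 0.92). For *Dnmt1* they included *Sh2b3* (r = 0.91) and *Maoa* (r = 0.91). For *Uhrf1* they were *Als2cl* (r = 0.88), *Parn* (r = 0.87), and *Hps4* (r = 0.84). For *Dnmt3b* they included *Grtp1* (r = 0.90) and *Emx2os* (r = 0.88), and for *Mbd2* they were *Wwox* (r = 0.91), *Rhoa* (r = 0.89), and *Lsp1* (r = 0.87). These points share libraries, and removal of group means leaves in the split of the females into 3 and 5 libraries. Over the 10 males alone r was lower for the genes named with *Tet1* (0.67 and 0.71), *Mbd2* (0.54 to 0.62), and *Dnmt3b* (0.80 for *Grtp1* and 0.62 for *Emx2os*), and was 0.85 to 0.97 for those named with the other 5.

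On GRCm39 the genes lie apart, on chromosomes 9 (*Dnmt1*, 20817945 to 20871184), 17 (*Uhrf1*, 56610275 to 56630489), 12 (*Dnmt3a*, 3856007 to 3964443), 2 (*Dnmt3b*, 153490861 to 153529650), 10 (*Tet1*, 62640349 to 62744775), 3 (*Tet2*, 133169436 to 133250900), 6 (*Tet3*, 83339355 to 83436066), and 18 (*Mbd2*). Reads were counted without regard to strand, and reads that STAR marked as ambiguous between genes did not enter the counts. Exon bases shared with a gene on the other strand can therefore lower a count. These bases were kept in the exon length used for CPM per kb. *Tet3* shares 1512 exon bases, 9.06% of its exon length, with *Bola3* on the opposite strand, and *Dnmt3a*, *Dnmt3b*, *Tet2*, and *Mbd2* share 66 to 208 exon bases with noncoding genes. When the 2 strand columns were summed in place of the unstranded column, each call in males against females was kept, with a log2 fold change of -0.25 for *Tet3*.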

How the data were processed

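RNA was extracted from kidney and sequenced from poly(A)-selected, non-directional libraries of 18 mice. The authors deposited raw read counts per gene from STAR, with alignment to GRCm39 and GENCODE vM36; versions of STAR were not given in the sources used here. The unstranded column was used. Its summary rows for unmapped, multimapping, and ambiguous reads and reads on no feature held 28.6% to 36.1% of reads and did not enter library sizes or tests. Gene names, exon lengths, and overlaps came from GENCODE vM39, in which 78168 of 78239 gene IDs were found, and promoter windows came from RefSeq (GRCm39).

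From these counts, CPM was computed on the library total of reads on genes. Comparisons were made in R 4.3.3 with edgeR 4.0.16, by its quasi-likelihood test after TMM normalization, on genes that reached 10 counts throughout the libraries of a comparison, with Benjamini-Hochberg adjustment over all of them. Diets were compared separately in males and females, and the sexes in a model of the 4 groups. Exact permutation tests used log2(CPM + 1), and correlations 100000 permutations in males and all 720 in females. Alternatives were DESeq2 1.42.0, limma 3.58.1 (voom), other filters and scalings, the summed strand columns, the replicate number as a block, and each library left out. The edgeR steps were also run on simulated counts drawn independently for each library. That simulation held no litters and no split of the females, so it does not show how the test behaves with them. No 2 libraries of a group agreed within sampling noise. The litter of each mouse is not known. By the study's account the adult mice came from fewer litters than there are LP or NP mice here. Some mice were therefore littermates, which share a mother and her diet, and all were treated as independent. The p-values therefore measure the spread between these mice and not between litters, and those for diet may be too small.

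The members and gene lists were chosen with earlier results of these data known. Named genes are the 8 in every comparison, list genes with an adjusted p under 0.05 by diet, for each list the 3 with the smallest p among those called between the sexes and the 1 with the smallest p by diet, and the 3 genes most like each of the 8. Not all of them are printed, and some are not reported here. Lists covered cofactors, readers, active demethylation, one-carbon metabolism, histone partners, S phase, germline genes, interferon-stimulated genes, glucocorticoid targets, and markers of 8 cell types. *Mbd2* coordinates are not printed.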

Additional observations from a re-analysis of the deposited data

Results flagged for a closer look

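In LP male 3, *Dnmt3b* was at 2.33 CPM (46 counts), apart from the other 4 LP males at 1.04 to 1.21 CPM, with a gap of 0.866 of the group's range against a critical value of 0.71. It was the only library to stand out among 24 sets of a gene and a group of 5, of which chance marks about 1 in 20. Without it, the log2 fold change of *Dnmt3b* in LP over NP males was 0.03, against 0.36 with it, and that in males against females was -0.94, with an adjusted p of 0.0101 in edgeR.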

How the results depend on the processing

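In males against females *Tet1* stayed past the threshold under all 29 alternatives, the 18 that leave out a library among them, with log2 fold changes of -1.86 to -0.93. *Tet2* stayed past it except within the 2 LP or the 2 NP groups, *Uhrf1* except under the replicate block (adjusted p of 0.0659 in edgeR), without the 3 female libraries, and within LP mice, and *Dnmt3b* was lost under 16 of 29. Over all comparisons and alternatives no called gene changed sign, and the 44 changes of sign among genes not called had a size of at most 0.20 on the log2 scale. Genes called among the 8 were 2 under the replicate block, against 4203 of all 12665 genes. They were 2 without LP female 1, LP female 2, and NP female 3, against 37.7% of all genes. Within the 2 LP groups 1 was called, against 18.9% of all genes (2505 of 13228). Within the 2 NP groups 2 were called, against 15.1% of all genes (1954 of 12952). With a library left out 3 to 5 were called, against 4440 to 5314 of all genes. With all libraries 4900 of 12665 genes were called, or 38.7%. For diet, none of the 8 was called in either sex under any alternative. Among all genes in males, 5 were called, against 9 with no filter on low counts, 19 with DESeq2, 2 under the replicate block, 1 with all 4 groups in 1 model, and 2 to 6 with a library left out. In females the count was 0, against 3 with no filter, 9 with DESeq2, 2 with all 4 groups in 1 model, 1 without the 3 female libraries, and 0 to 2 with a library left out (2 without NP female 2). For the diet by sex term it was 2, against 5 with DESeq2, 7 with limma-voom, 0 under the replicate block, with summed strand columns, or without the 3 female libraries, and 0 to 4 with a library left out (0 without LP male 3 or NP female 3, and 4 without NP female 2). For the diet averaged over both sexes it was 1, against 16 with DESeq2, which called 1 of the 8, 4 without the 3 female libraries, and 1 to 16 with a library left out (16 without NP female 2), none of them among the 8. The exact permutation gave an unadjusted p under 0.05 for 1 of the 8 by diet in males, and for 2 with TMM-adjusted library sizes. In CPM without division by length, 4 of 8 genes kept their rank. The causes were not tested. The replicate block, under which *Dnmt3b* had an adjusted p of 0.0567 in edgeR, changed no call among the 8 but those of *Uhrf1* and *Dnmt3b*. Same-numbered libraries had a median r of -0.15 (LP and NP males), -0.44 (LP and NP females), -0.03 (LP males and females), and 0.14 (NP males and females, -0.27 to 0.49), and no pair of groups had every r over 0.1 or every library closest to its own number, so the numbers were not taken to pair mice. Depth limits *Tet1* and *Dnmt3b*, with as few as 10 and 12 counts in a library.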

Other observations

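*Tet2* had a value below 0 for LP over NP in both sexes, past an unadjusted but not an adjusted threshold, so the diet was also compared over both sexes in 1 model, a comparison added after these values were seen and sharing all mice with those within each sex. The log2 fold change of LP over NP was -0.50 ± 0.11 (SE), with an unadjusted p of 0.00019 and an adjusted p of 0.342 in edgeR, where 0.0079% of all genes were called. DESeq2 gave -0.50 with an adjusted p of 0.0111. Over the other alternatives the adjusted p ranged from 0.0878 to 0.813, and the value from -0.55 to -0.45. None of the other 7 genes was called by either tool, and in edgeR none of those 7 had an unadjusted p under 0.05.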
